A study of Mus musculus with 10 samples.

Results

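The tricarboxylic acid (TCA) cycle enzymes described here are 9 genes: Cs, Idh2, Idh3a, Idh3b, Idh3g, Ogdh, Sucla2, Suclg1 and Fh1. They were looked up by symbol among the 23992 symbols in the tables of 10 mRNA libraries, and a symbol listed with several transcripts was represented by its most read one. All 9 were found, and all 9 had enough reads to be tested. The libraries come from CD8+ T cells of the spleen of C57BL/6N mice, in 5 groups of 2. Every group was first activated with antibodies to CD3 and CD28 for 48 h and then cultured for another 48 h. The groups were IL-21 (100 ng/ml) with LDHi, IL-2 (100 IU/ml) with LDHi, IL-21 alone, IL-2 alone, and no cytokine. LDHi is the lactate dehydrogenase inhibitor NCI-737, used at 1 µM and present from activation onward, so that its action during activation and during cytokine culture cannot be told apart. No group received LDHi without a cytokine. The labels do not say what separates the replicates, so the p values speak of the scatter among these particular libraries, and that scatter may be technical.

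The TCA cycle runs in the mitochondrial matrix. It joins acetyl-CoA to oxaloacetate to make citrate, oxidizes citrate by way of 2-oxoglutarate, succinate, fumarate and malate back to oxaloacetate, and hands the electrons to the respiratory chain as NADH and reduced flavin. In T cells the cycle supplies ATP and also citrate for lipid synthesis and histone acetylation, and activated effector cells make much of their ATP by glycolysis ending in lactate, the step that lactate dehydrogenase carries out. IL-2 is known to support effector differentiation and glycolysis, and IL-21 is associated with memory-like features.

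The library totals given by the authors were 45138204 to 62848913 reads, of which 59.9 to 79.4% fell on the transcripts used. The lowest share was that of IL-21 replicate 2, whose deposited RPKM (reads scaled by transcript length and by the authors' library total) is therefore low for most genes. IL-21 also had the widest spread between replicates (SD of the log2 difference over genes 0.76, against 0.30 to 0.49 in the other groups). All 9 markers of CD8+ T cells were above 1 RPKM in every group and summed to 1883 to 2580 RPKM per library. Of 8 macrophage and dendritic markers 6 to 8 were above 1 RPKM, and they summed to 33.0 to 55.5 RPKM in IL-21 + LDHi, 76.0 to 85.8 in IL-2 + LDHi, 118 to 132 in IL-21, 57.0 to 64.0 in IL-2 and 285 to 355 without cytokine. The 8 granulocyte, mast cell and basophil markers summed to 0.887 to 1.25, 1.53 to 1.64, 72.2 to 103, 2.68 to 2.72 and 225 to 475 RPKM in the same order of groups, and S100a8 and Elane were at 0 reads in both groups with LDHi. The libraries without cytokine thus held the most RNA of both marker lists. In such bulk RNA, fewer cells of a type and less RNA per cell cannot be told apart.

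Levels of different enzymes can be set side by side as RPKM, which is per length. With IL-2, Cs had the highest mean of the 9 (113 ± 0.677 RPKM), followed by Idh3b (76.7 ± 4.17) and Idh3g (72.7 ± 1.37). The lowest with IL-2 were Sucla2 (21.9 ± 0.937) and Idh3a (22.3 ± 0.876). Summed over the 9, each library held 292 and 297 RPKM in IL-21 + LDHi, 345 and 364 in IL-2 + LDHi, 332 and 245 in IL-21, 425 and 432 in IL-2, and 306 and 284 without cytokine. In deposited RPKM the IL-2 libraries lay above all others, and IL-2 + LDHi came next. After the TMM scaling used in the fit, the IL-2 libraries stayed highest. The higher IL-21 library was then level with the lower IL-2 + LDHi library. The sum was not tested. Of the 9 enzymes, 6 had their highest mean in IL-2. Idh3a was highest in IL-2 + LDHi, Ogdh in IL-21 + LDHi and Idh2 without cytokine.

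**Figure D1:**
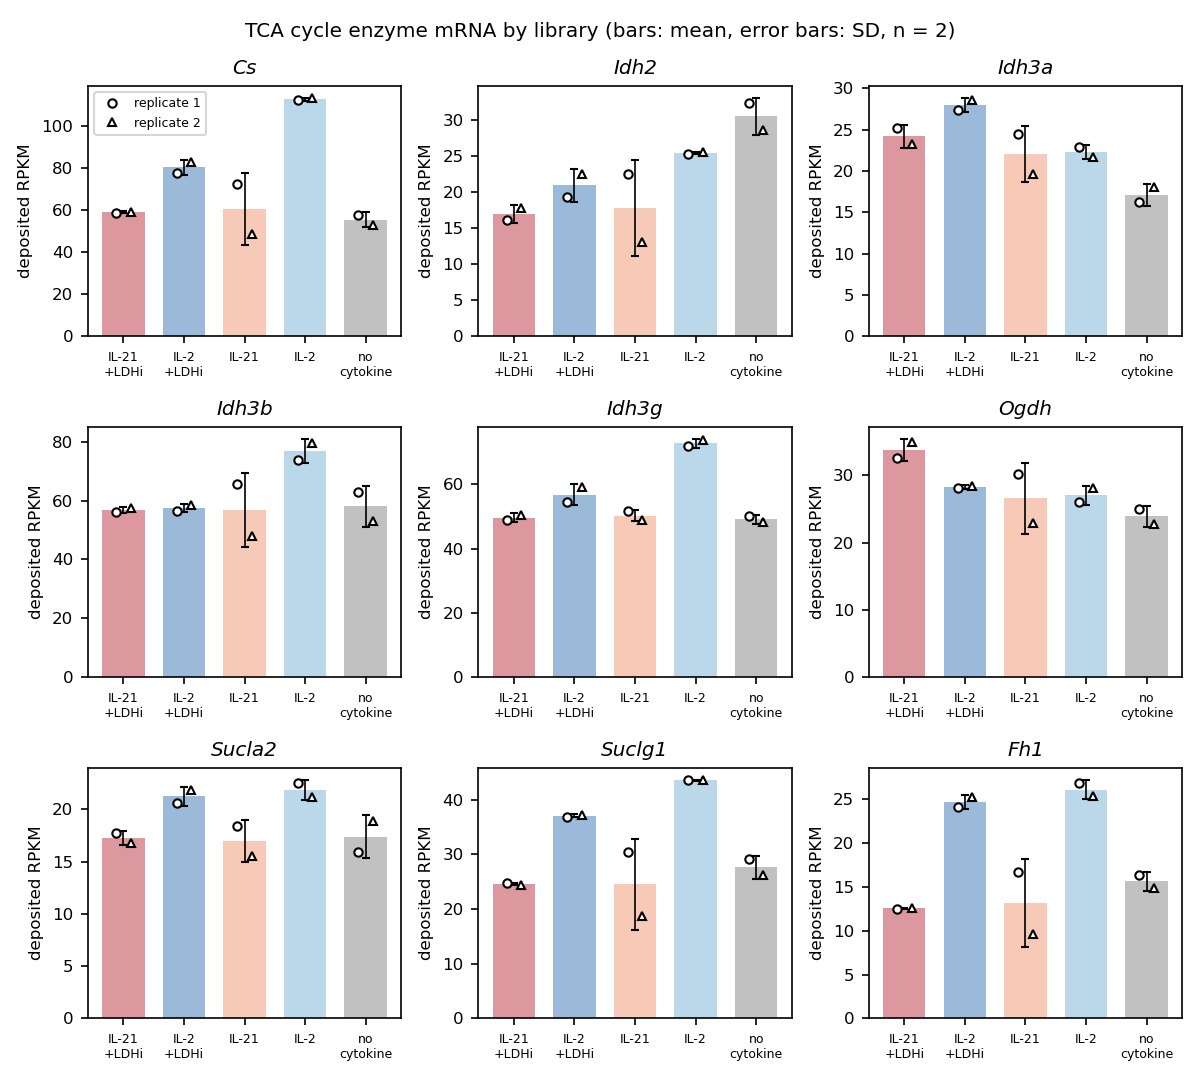
Deposited RPKM of the 9 TCA cycle enzymes (vertical axis, from 0, a scale of its own in each panel) in the 5 groups (horizontal axis). Bars are means, error bars are SD over n = 2 libraries, circles are replicate 1 and triangles replicate 2. Cs at 112 and 113 RPKM in IL-2 stands above all other libraries, Idh2 is highest without cytokine at 32.3 and 28.6 RPKM, and the IL-21 libraries lie far apart for Cs, Idh2, Suclg1 and Fh1.

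Citrate synthase, encoded by Cs (chromosome 10, 128337727 to 128362482, mm10, forward strand), joins acetyl-CoA and oxaloacetate and opens the cycle. Cs measured 58.8 and 59.3 RPKM in IL-21 + LDHi, 77.8 and 82.7 in IL-2 + LDHi, 72.5 and 48.6 in IL-21, 112 and 113 in IL-2, and 57.8 and 52.9 without cytokine. The IL-2 libraries were the highest and the IL-2 + LDHi libraries the next, with no overlap, while the IL-21 libraries spanned those of IL-21 + LDHi. Cs rose with IL-2 by 1.01 ± 0.12 on the log2 scale, to 201% of the level without cytokine (edgeR adjusted p = 0.000131), the largest rise with IL-2 among the 9 enzymes. It was lower in IL-21 than in IL-2 (log2 -0.74 ± 0.11, edgeR adjusted p = 0.000853), and both calls held under all 18 alternatives. Cs fell with LDHi in IL-2 cells, to 69.3% of the level in IL-2 (log2 -0.53 ± 0.11, edgeR adjusted p = 0.00606). That call was lost without IL-2 + LDHi replicate 1 (adjusted p = 0.0672) and with limma on RPKM (0.0638), and it ran from 3.11e-05 to 0.0672 over the alternatives. No difference was detectable in IL-21 cells with LDHi (-0.05, 95% interval -0.31 to 0.21).

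Isocitrate is oxidized to 2-oxoglutarate by 2 kinds of mitochondrial enzyme. Idh2 (chromosome 7, 80094845 to 80118608) encodes the NADP-dependent form, which makes NADPH, whereas Idh3a, Idh3b and Idh3g encode the catalytic alpha and the regulatory beta and gamma subunits of the NAD-dependent form of the classical cycle. Idh2 was the one enzyme of the 9 with its highest level without cytokine. It measured 16.1 and 17.8 RPKM in IL-21 + LDHi, 19.3 and 22.5 in IL-2 + LDHi, 22.5 and 13.1 in IL-21, 25.2 and 25.5 in IL-2, and 32.3 and 28.6 without cytokine. Both libraries without cytokine lay above all others, with IL-2 next. Idh2 was lower in IL-21 than without cytokine (log2 -0.65 ± 0.16, edgeR adjusted p = 0.0343). This call was lost in 9 of the 10 fits that left out 1 library (all but that without IL-21 replicate 1; adjusted p = 0.054 to 0.129 in those 9), with limma (0.0523) and when only the groups compared were fitted (0.309). With IL-2 the difference from no cytokine was -0.28 ± 0.16 and not called (edgeR adjusted p = 0.172), but it was called without IL-21 replicate 1 (0.0441), without IL-21 replicate 2 (0.042) and with library size alone (0.0477). The libraries without cytokine were highest in Idh2 and in both the macrophage and the basophil marker sums given above. The IL-2 libraries were next in Idh2 and below those of IL-21 in both marker sums. The difference in Idh2 between IL-21 and IL-2 was not called (edgeR adjusted p = 0.0851). The part of these cells in the level of Idh2 was not tested.

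Idh3a (chromosome 9, 54586511 to 54604662) followed another order than its partner subunits. It measured 25.1 and 23.2 RPKM in IL-21 + LDHi, 27.4 and 28.6 in IL-2 + LDHi, 24.4 and 19.7 in IL-21, 22.9 and 21.6 in IL-2, and 16.2 and 18.0 without cytokine. In deposited RPKM the libraries without cytokine were the lowest, the IL-2 + LDHi libraries the highest, and the IL-2 and IL-21 libraries overlapped. After the TMM scaling used in the fit, the libraries without cytokine stayed lowest. The IL-2 + LDHi (25.9 and 26.7) and IL-21 + LDHi (26.9 and 24.6) libraries then overlapped. Those of IL-21 (24.0 and 23.9) then lay above those of IL-2 (22.3 and 20.7). Idh3a rose with IL-21 (log2 0.52 ± 0.10, 143% of the level without cytokine, edgeR adjusted p = 0.0156) and with IL-2 (0.36 ± 0.10, 129%, edgeR adjusted p = 0.0176). The rise with IL-21 lost its call when replicate 1 without cytokine was left out (adjusted p = 0.0672), with limma (0.12) and when only the groups compared were fitted (0.25). The rise with IL-2 lost it when replicate 1 without cytokine (0.0954) or IL-2 replicate 1 (0.108) was left out, with library size alone (0.118) and when only the groups compared were fitted (0.0525). With LDHi in IL-2 cells the value was 0.29 ± 0.10 (edgeR adjusted p = 0.0547), and it was called when either IL-21 library (0.032 and 0.0306) or either library without cytokine (0.0452 and 0.0456) was left out, with library size alone (0.0158) and when only the groups compared were fitted (0.00316).

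Idh3b (chromosome 2, 130279309 to 130284451) measured 56.0 and 57.6 RPKM in IL-21 + LDHi, 56.5 and 58.3 in IL-2 + LDHi, 65.7 and 48.0 in IL-21, 73.8 and 79.7 in IL-2, and 63.0 and 53.2 without cytokine. The IL-2 libraries stood apart above the other 4 groups, which overlapped one another in deposited RPKM. After the TMM scaling used in the fit, the IL-2 libraries of Idh3b stayed apart. Those of IL-2 + LDHi (53.5 and 54.4) then lay below those of IL-21 + LDHi (59.9 and 61.1) and IL-21 (64.6 and 58.3). Idh3g (chromosome X, 73778963 to 73786897) measured 48.7 and 50.5, 54.5 and 59.0, 51.5 and 49.0, 71.7 and 73.6, and 50.1 and 48.1 RPKM in the order of groups used for the RPKM of Idh3b. Again the IL-2 libraries were apart, with the IL-2 + LDHi libraries next. After the TMM scaling used in the fit, the IL-2 libraries stayed apart. Those of IL-2 + LDHi (51.5 and 55.0) then overlapped those of IL-21 + LDHi (52.1 and 53.6) and IL-21 (50.7 and 59.5). Idh3g rose with IL-2 (log2 0.55 ± 0.10, 146%, edgeR adjusted p = 0.00227) under all 18 alternatives. Idh3b rose with IL-2 too (0.38 ± 0.11, 130%, edgeR adjusted p = 0.0162), a call lost when replicate 2 without cytokine (0.0962) or IL-2 replicate 2 (0.091) was left out, with library size alone (0.0703) and with limma (0.0703). With LDHi in IL-2 cells Idh3b fell to 72.8% (log2 -0.46 ± 0.11, edgeR adjusted p = 0.00927) and Idh3g to 75.9% (-0.40 ± 0.10, edgeR adjusted p = 0.0149) of the level in IL-2. These calls rest on few libraries: that of Idh3b was lost without IL-2 + LDHi replicate 1 (0.0799) or 2 (0.069) or IL-2 replicate 2 (0.0756) and with limma (0.08), and that of Idh3g without any 1 of the 4 libraries compared (0.0659 to 0.128) and with library size alone (0.0604). Idh3g was lower in IL-21 than in IL-2 (-0.35 ± 0.10, edgeR adjusted p = 0.0212), a call lost when either IL-2 library (0.0795 and 0.0831) or IL-21 replicate 1 (0.0618) was left out and when only the groups compared were fitted (0.139).

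Among the 9, Idh3b and Idh3g had the most alike patterns. Their log2 CPM, each centred on its own mean, differed by a root mean square of 0.13 over the 10 libraries, against 0.53 between Idh3a and Idh2, the pair farthest apart. By the same measure Suclg1 and Fh1 were nearest to each other (0.14), Cs was nearest to Suclg1 (0.14), Ogdh to Idh3a (0.20), Sucla2 to Idh3g (0.14) and Idh2 to Idh3b (0.31). The points share libraries and depth, and no test was made. For Idh3b and Idh3g, which move alike, the promoters are printed from RefSeq (GRCm38.p6, the assembly of mm10), since both hold the letters CCGGAAG, a motif of ETS-family factors. Each runs 5′ to 3′ on the gene's strand and takes in 250 bases before the start site and 10 after it, with motif matches on either strand in capitals.
Idh3b, chr2:130284442-130284701, reverse strand: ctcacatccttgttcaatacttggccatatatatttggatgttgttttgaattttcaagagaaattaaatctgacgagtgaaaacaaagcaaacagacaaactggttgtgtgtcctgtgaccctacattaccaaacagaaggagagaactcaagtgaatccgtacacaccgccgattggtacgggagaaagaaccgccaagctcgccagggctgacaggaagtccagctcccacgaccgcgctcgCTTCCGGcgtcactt
Idh3g, chrX:73786888-73787147, reverse strand: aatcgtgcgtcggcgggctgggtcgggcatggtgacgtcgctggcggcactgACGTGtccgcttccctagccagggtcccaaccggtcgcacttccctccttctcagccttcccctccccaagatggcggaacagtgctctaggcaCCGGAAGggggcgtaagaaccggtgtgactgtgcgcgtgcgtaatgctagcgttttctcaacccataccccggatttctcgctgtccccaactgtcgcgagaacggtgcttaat

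In Idh3b the match begins 5 bases before the start site and lies on the opposite strand, and in Idh3g it begins 104 bases before it. Windows of 300 bases, from 250 before to 50 after the start site, were searched for 5 motifs on both strands, and 8 of the 9 enzymes had at least 1 window. Ogdh had 6 of their 13 windows, several of them overlapping, and the other 7 enzymes had 1 each. A gene is counted here when any of its windows holds the motif, which favours genes with several windows. CCGGAAG was in 2 of the 8 enzymes and in 9.93% of the 27025 genes in the table. ACGTG, the core of the HIF site, was in Idh3g and in Ogdh and in 21.8% of all genes, CACGTG (E-box, which contains ACGTG) only in Ogdh and in 8.09%, and the NRF1 motif in Sucla2 and in 5.19%. TTCNNNGAA (STAT) was in 0 of the 8 and in 9.55% of all genes. Per window, these shares were 8.86% for CCGGAAG, 19.6% for ACGTG, 7.15% for CACGTG, 4.60% for NRF1 and 8.30% for TTCNNNGAA, over 32851 windows. The windows of Cs, Suclg1, Fh1 and Idh2 held none of these letters, and that of Idh2 belongs to another start site than the transcript measured here.

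The 2-oxoglutarate dehydrogenase complex turns 2-oxoglutarate into succinyl-CoA, and Ogdh (chromosome 11, 6291597 to 6359094) encodes its first component. Ogdh was highest with IL-21 + LDHi. It measured 32.7 and 34.9 RPKM in IL-21 + LDHi, 28.1 and 28.5 in IL-2 + LDHi, 30.3 and 22.9 in IL-21, 26.0 and 28.1 in IL-2, and 25.0 and 22.8 without cytokine. Both IL-21 + LDHi libraries lay above the other 8, and in deposited RPKM neighbouring groups below them overlapped. After the TMM scaling used in the fit, the IL-21 + LDHi libraries stayed highest (34.9 and 37.0). Those of IL-21 (29.7 and 27.8) then lay above those of IL-2 + LDHi (26.6 and 26.6) and IL-2 (25.4 and 26.9), which overlapped. The libraries without cytokine (24.3 and 22.4) were then the lowest. Ogdh was higher in IL-21 + LDHi than in IL-2 + LDHi (log2 0.44 ± 0.10, 135%, edgeR adjusted p = 0.0109). It was also higher in IL-21 + LDHi than in IL-21 (0.32 ± 0.10, 125%, edgeR adjusted p = 0.0362). The first call was lost without any 1 of the 4 libraries compared (0.0506 to 0.101) and with limma (0.269). The second was lost without either IL-2 library, either IL-2 + LDHi library, either IL-21 + LDHi library or IL-21 replicate 2 (0.0588 to 0.194), with the replicate block (0.0553), with no filter on low counts (0.0695), with limma (0.113) and when only the groups compared were fitted (0.191). Of the 9 enzymes Ogdh alone is listed with several transcripts, 5 in all. They share nearly all reads (95496 to 96048 over all libraries), so isoforms were not compared.

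Succinyl-CoA synthetase makes succinate and a nucleoside triphosphate. Suclg1 (chromosome 6, 73248505 to 73276907) encodes the alpha subunit common to both of its forms, and Sucla2 (chromosome 14, 73552786 to 73596144) the beta subunit of the ATP-forming one. Suclg1 measured 24.8 and 24.5 RPKM in IL-21 + LDHi, 36.8 and 37.2 in IL-2 + LDHi, 30.4 and 18.6 in IL-21, 43.5 and 43.6 in IL-2, and 29.1 and 26.2 without cytokine. The groups with IL-2 were the highest, in the order IL-2 and then IL-2 + LDHi, without overlap. Suclg1 rose with IL-2 (log2 0.64 ± 0.13, 156%, edgeR adjusted p = 0.0039) and was lower in IL-21 than in IL-2 (-0.68 ± 0.13, 62.4%, edgeR adjusted p = 0.00318), both under all 18 alternatives. Between IL-21 + LDHi and IL-2 + LDHi the difference was -0.41 ± 0.13 and narrowly not called (edgeR adjusted p = 0.0529). It was called without either IL-21 library (0.00529 and 0.00506), with the replicate block (0.0486), with library size alone (0.0232), with DESeq2 (0.0262) and when only the groups compared were fitted (0.000643). With LDHi in IL-2 cells it was -0.27 ± 0.13 (edgeR adjusted p = 0.137), called without either IL-21 library (0.0263 and 0.0257) and when only the groups compared were fitted (0.00414).

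Sucla2 varied least of the 9, with a ratio of highest to lowest group mean of 1.29. It measured 17.7 and 16.8 RPKM in IL-21 + LDHi, 20.6 and 21.9 in IL-2 + LDHi, 18.4 and 15.5 in IL-21, 22.5 and 21.2 in IL-2, and 15.9 and 18.9 without cytokine. The IL-2 and IL-2 + LDHi libraries overlapped each other and lay above all others, and the remaining groups overlapped. No comparison called Sucla2. The nearest was IL-2 against no cytokine (0.31 ± 0.12, edgeR adjusted p = 0.0517), which was called with DESeq2 (0.0316), with size factors by relative log expression (0.0461) and when replicate 2 without cytokine (0.0226), IL-21 replicate 1 (0.0295) or IL-21 replicate 2 (0.0289) was left out.

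Fumarase, encoded by Fh1 (chromosome 1, 175601378 to 175625635), hydrates fumarate to malate. Fh1 measured 12.5 and 12.6 RPKM in IL-21 + LDHi, 24.2 and 25.3 in IL-2 + LDHi, 16.7 and 9.65 in IL-21, 26.9 and 25.3 in IL-2, and 16.3 and 14.9 without cytokine. All 4 libraries with IL-2 lay above the 6 others, with or without LDHi. Fh1 rose with IL-2 (log2 0.72 ± 0.15, 165%, edgeR adjusted p = 0.00413). It was lower in IL-21 than in IL-2 (-0.84 ± 0.15, 55.9%, edgeR adjusted p = 0.00222) and lower in IL-21 + LDHi than in IL-2 + LDHi (-0.80 ± 0.15, 57.5%, edgeR adjusted p = 0.00478). These 3 calls held under all 18 alternatives. No difference with LDHi was detectable in IL-2 cells (-0.12, 95% interval -0.47 to 0.23) or in IL-21 cells (-0.08, -0.43 to 0.27).

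What IL-2 adds to activated cells was the first comparison. Of the 9 enzymes 6 were called higher and 0 lower, namely Cs, Fh1, Suclg1, Idh3g, Idh3b and Idh3a. Over all 14357 genes tested 25.6% were called higher and 24.8% lower, 50.5% together, at an adjusted p below 0.05. All 9 had libraries that did not overlap in RPKM, as did 78.2% of all genes, so little can be read from that count. The median of the 9 was 0.38, against -0.03 over all genes. Of the markers of other cells, 6 of 8 for macrophages and dendritic cells and 8 of 8 for granulocytes, mast cells and basophils were called lower with IL-2, and their part in the enzymes' values was not tested, here or in the comparisons that follow. Scaling by library size alone moved the median of all genes by -0.14 here, and on that scale Idh3a (0.22) and Idh3b (0.25) were no longer called.

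**Figure D2:**
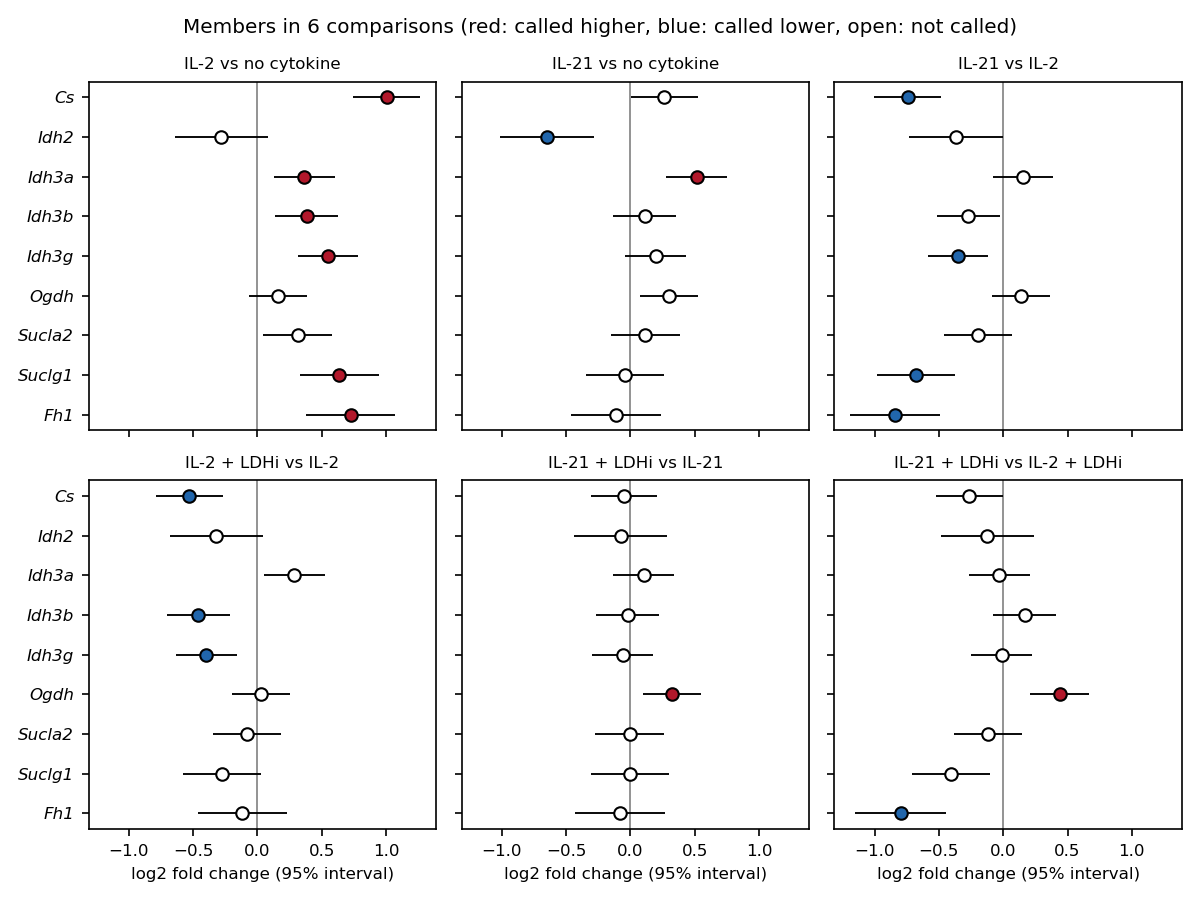
Log2 fold change of the 9 enzymes (horizontal axis, first group named over the second) in 6 comparisons, with lines for the 95% interval of edgeR's fit. Red points are called higher, blue points called lower and open points not called. With IL-2, 6 of 9 points are red, and in IL-21 + LDHi against IL-21 only Ogdh is called.

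IL-21 against no cytokine called 1 of the 9 higher (Idh3a) and 1 lower (Idh2), where 5.65% and 5.89% of all genes tested were called higher and lower, 11.5% together. Over all genes, 811 were called higher and 846 lower, against 648 and 1092 with library size alone and 461 and 1357 with limma. The median of the 9 was 0.12, against -0.01 over all genes, and the libraries of 2 of the 9 did not overlap in RPKM, which held for 42.6% of all genes. Both marker lists had 4 of 8 called lower. The IL-21 libraries differed most for Fh1, Idh2, Suclg1 and Cs. The ratio of replicate 2 to replicate 1 in deposited RPKM, which is low for most genes in replicate 2, was 0.577 for Fh1 and 0.582 for Idh2. It was 0.614 for Suclg1, 0.67 for Cs, 0.95 for Idh3g and 0.842 for Sucla2. After the TMM scaling used in the fit it was 0.712 for Fh1, 0.72 for Idh2, 0.758 for Suclg1 and 0.828 for Cs. On that scale it was 1.17 for Idh3g, in the opposite direction, and 1.04 for Sucla2. Without IL-21 replicate 2, Cs was called higher (0.40, adjusted p = 0.0342), and without IL-21 replicate 1, Idh3g was called higher (0.30, 0.0487) and Fh1 lower (-0.39, 0.0393).

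IL-21 set directly against IL-2 called 0 of the 9 higher and 4 lower (Cs, Idh3g, Suclg1 and Fh1), where 24.9% and 24.7% of all genes were called higher and lower, 49.6% together. With limma the all-gene split was 1851 higher and 4122 lower, against 3580 and 3543 here. The 9 had a median of -0.35, against 0.02 over all genes. The libraries of 7 of the 9 did not overlap in RPKM, which held for 68.8% of all genes. Here 6 macrophage and dendritic markers were called higher and 1 lower, and all 8 granulocyte, mast cell and basophil markers higher. Idh2 (-0.37 ± 0.16, edgeR adjusted p = 0.0851) and Idh3b (-0.27 ± 0.11, 0.0648) were not called, though Idh2 was without IL-21 replicate 1 (-0.63, 0.0031) and Idh3b was without IL-21 replicate 1 (0.0295) or either library without cytokine (0.0444 and 0.0455) and with DESeq2 (0.0309). Idh3a and Ogdh had values of 0.15 and 0.14, with intervals of -0.08 to 0.39 and -0.09 to 0.37. This comparison shares the IL-2 libraries with that of IL-2 against no cytokine.

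LDH inhibition in IL-2 cells called 3 of the 9 lower (Cs, Idh3b and Idh3g) and 0 higher, where 21.6% and 17.8% of all genes were called lower and higher, 39.4% together. That balance turned with library size alone, which called 2564 lower and 3308 higher, against 3100 and 2557 here. The median of the 9 was -0.27, against 0.01 over all genes. The libraries of 7 of the 9 did not overlap in RPKM, which held for 82.3% of all genes. Counts of called enzymes ran from 0 without IL-2 + LDHi replicate 1 to 6 without either IL-21 library. Idh2 (-0.32 ± 0.16, edgeR adjusted p = 0.145) was among those called without IL-21 replicate 1 (0.0303) or 2 (0.0297). Library size alone moved the median of all genes by 0.12, called Idh3a higher (0.41, adjusted p = 0.0158) and no longer called Idh3g. Ldha, which encodes the muscle-type subunit of the inhibited enzyme, had a log2 change of -1.85 ± 0.17 in this comparison (edgeR adjusted p = 8.43e-05). Of the 2 LDH genes 1 was called lower and 0 higher (median -0.70), and Ldhb was not called. Markers of other lymphocytes moved too. All 3 natural killer markers rose, Ncr1 by 5.42 ± 0.54, Klrb1c by 2.48 ± 0.24 and Klra8 by 1.80 ± 0.39, and their sum was 9.34 to 10.2 RPKM in IL-2 + LDHi, against 1.11 to 1.31 in IL-2. Of 3 CD4+ T cell markers, which summed to 8.20 to 8.82 RPKM in IL-2 + LDHi and 3.42 to 3.60 in IL-2, Foxp3 (2.21 ± 0.40) and Cd40lg (1.05 ± 0.34) rose and Cd4 had a value of -0.78 ± 0.49. Of 8 macrophage and dendritic markers 5 were called higher and 1 lower.

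LDH inhibition in IL-21 cells called 1 of the 9 higher (Ogdh) and 0 lower, where 11.1% and 20.3% of all genes were called higher and lower, 31.3% together. The other 8 had values between -0.08 and 0.10, and the libraries of 1 of the 9 did not overlap in RPKM, against 56.9% of all genes, with the wide spread of the IL-21 libraries given above. The intervals of these 8 reached no lower than -0.44 and no higher than 0.34. The median of the 9 was -0.02, against -0.03 over all genes. Called lower were 7 of 8 macrophage and dendritic markers, 8 of 8 granulocyte, mast cell and basophil markers and 2 of 3 natural killer markers.

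With LDHi present, IL-21 against IL-2 called 1 of the 9 higher (Ogdh) and 1 lower (Fh1), where 9.38% and 16.7% of all genes were called higher and lower, 26.1% together. With limma the all-gene split was 577 higher and 2422 lower, against 1347 and 2394 here. Here the 9 had a median of -0.12, against 0.01 over all genes. The libraries of 8 of the 9 did not overlap in RPKM, which held for 75.6% of all genes. Of the marker genes, 4 of 8 for macrophages and dendritic cells, 3 of 3 for natural killer cells and 2 of 3 for CD4+ T cells were called lower. Cs (-0.26 ± 0.11, edgeR adjusted p = 0.127) was called lower without IL-21 replicate 1 (0.0413) or 2 (0.0411), with library size alone (0.0495) and when only the groups compared were fitted (0.00615).

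Whether LDHi acted differently in the cytokines was tested by an interaction, the LDHi change in IL-21 cells minus that in IL-2 cells. It called 0 of the 9 by edgeR's quasi-likelihood test, while 7.98% of all genes were called higher and 13.8% lower, 21.7% together. Over all genes 1145 were higher and 1977 lower, against 857 and 2533 with library size alone and 1228 and 1250 with limma. At an unadjusted p below 0.05 there were 3 of the 9, all positive, where 14% of all genes were positive at that threshold: Cs (0.48 ± 0.16, edgeR adjusted p = 0.0644), Idh3b (0.44 ± 0.15, 0.0728) and Idh3g (0.34 ± 0.15, 0.138). DESeq2 called Cs (adjusted p = 0.0183) and Idh3b (0.0281). Without IL-21 replicate 1, 4 were called (Cs, Idh2, Idh3b and Suclg1), and without IL-21 replicate 2, 1 was (Idh3g). For Fh1 the value was 0.04, with an interval of -0.45 to 0.53.

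Ratios within a library do not depend on how libraries are scaled. They are given with no test. The ratio of Idh2 to Idh3a RPKM was 0.639 and 0.768 in IL-21 + LDHi, 0.705 and 0.789 in IL-2 + LDHi, 0.92 and 0.665 in IL-21, 1.10 and 1.18 in IL-2, and 1.99 and 1.59 without cytokine. It was thus above 1 in both groups that had neither IL-21 nor LDHi and below 1 in the other 6 libraries. Idh3a relative to the mean of Idh3b and Idh3g was 0.48 and 0.429 in IL-21 + LDHi, 0.493 and 0.487 in IL-2 + LDHi, 0.417 and 0.406 in IL-21, 0.315 and 0.282 in IL-2, and 0.286 and 0.356 without cytokine. Both groups with LDHi lay above IL-21, and IL-21 above IL-2 and no cytokine, which overlapped.

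Suclg2, outside the 9, encodes the beta subunit of the GTP-forming synthetase which pairs with the same alpha subunit. The ratio of Sucla2 to Suclg2 RPKM was 0.81 and 0.783 in IL-21 + LDHi, 1.08 and 1.07 in IL-2 + LDHi, 1.26 and 1.27 in IL-21, 0.887 and 0.877 in IL-2, and 1.14 and 1.18 without cytokine. Replicates differed little, and no 2 groups overlapped. With LDHi the ratio was lower in IL-21 cells and higher in IL-2 cells. In the fit, Suclg2 rose with LDHi in IL-21 cells (log2 0.66 ± 0.11, edgeR adjusted p = 0.00183) and fell with it in IL-2 cells (-0.37 ± 0.11, 0.0249), and its interaction was called (1.03 ± 0.15, 0.00179), whereas Sucla2 had values of -0.01 ± 0.12 and -0.08 ± 0.12. The fall in IL-2 cells lost its call in 7 of the 18 alternatives (adjusted p up to 0.177), and both other calls held in all 18. Suclg1 relative to the sum of both beta subunits was lowest in IL-21 + LDHi, at 0.625 and 0.64, against 0.672 to 0.976 in the other groups.

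**Figure D3:**
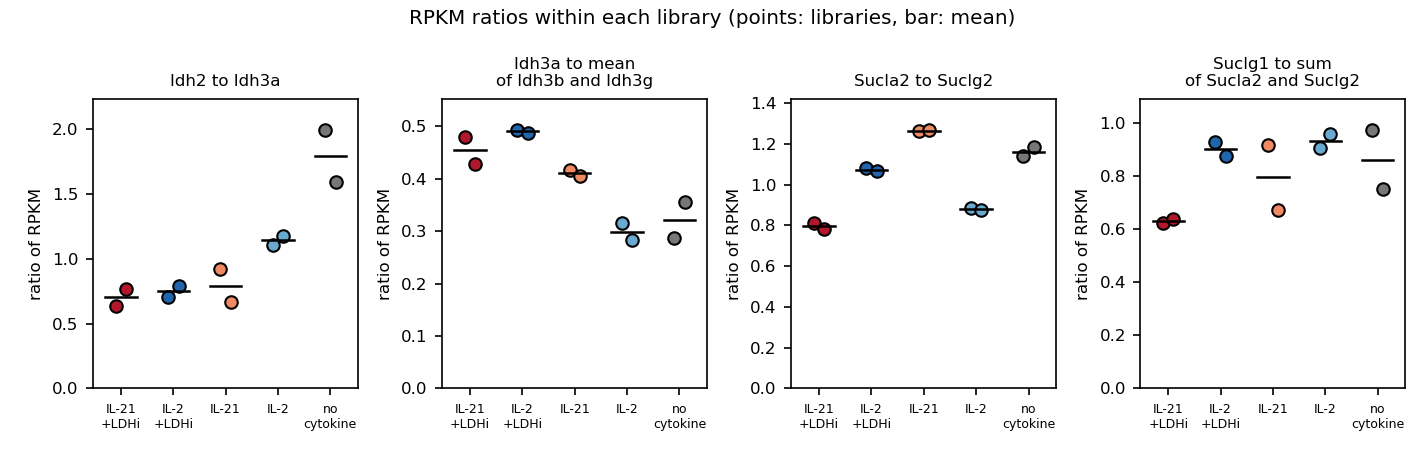
Ratios of RPKM within each library (vertical axis, from 0) by group (horizontal axis), for Idh2 to Idh3a, Idh3a to the mean of its partner subunits, Sucla2 to Suclg2, and Suclg1 to the sum of the beta subunits. Points are libraries and bars the mean of 2. The Sucla2 to Suclg2 ratio runs from 0.783 and 0.81 in IL-21 + LDHi to 1.26 and 1.27 in IL-21.

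Of the rest of the cycle, 10 genes are described. With IL-2, 5 of the 10 were called higher and 0 lower (median 0.45, against -0.03 over all genes and 25.6% called higher). Mdh2, which makes oxaloacetate from malate, rose by 0.72 ± 0.13 (edgeR adjusted p = 0.00189) to 149 ± 5.75 RPKM in IL-2, against 89.8 ± 7.63 without cytokine. Suclg2 rose by 0.71 ± 0.11, and both calls held in all 18 alternatives. The others were the succinate dehydrogenase subunits Sdhb (0.62 ± 0.18), Sdhd (0.51 ± 0.15) and Sdhc (0.47 ± 0.16), each of which lost its call in some alternatives. IL-21 against no cytokine called 0 of the 10, where 5.65% of all genes were called higher and 5.89% lower. IL-21 against IL-2 called 1 higher (Sdhaf2) and 3 lower (Suclg2, Sdhb and Mdh2), where 24.9% and 24.7% of all genes were called higher and lower. Among the 3 lower, Suclg2 had a value of -0.72 ± 0.11 (edgeR adjusted p = 0.000791). The Suclg2 call held in all 18 alternatives, and the calls of Mdh2, Sdhb and Sdhaf2 were lost in 4, 2 and 1 of them. With LDHi in IL-2 cells, where 21.6% of all genes fell and 17.8% rose, 1 of the 10 fell, Suclg2, as given above. With LDHi in IL-21 cells, where 11.1% of all genes rose and 20.3% fell, 2 rose (Suclg2 and Sdha) and 1 fell (Sdhaf2). Only Suclg2 kept its call in all 18 alternatives. Sdha lost it in 15 and Sdhaf2 in 7. In IL-21 + LDHi against IL-2 + LDHi, 1 was lower (Sdhb, -0.74 ± 0.18, edgeR adjusted p = 0.0136) and 0 higher, where 16.7% and 9.38% of all genes were called lower and higher. The Sdhb call was lost without IL-2 + LDHi replicate 2 or without IL-21 + LDHi replicate 1 or 2.

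At the entry of pyruvate 5 of 13 genes were called higher and 2 lower with IL-2, and the shares over all genes were 25.6% and 24.8%. Pcx, pyruvate carboxylase, which makes oxaloacetate from pyruvate, rose by 4.23 ± 0.23 (edgeR adjusted p = 4.32e-06), to 8.74 ± 1.84 RPKM in IL-2, against 0.459 ± 0.008 without cytokine. Pdk2, a kinase that inactivates pyruvate dehydrogenase, was lower by -1.03 ± 0.18. With LDHi in IL-2 cells, where 21.6% of all genes fell and 17.8% rose, 4 of the 13 fell and 0 rose, among them Pcx (-3.22 ± 0.22, edgeR adjusted p = 1.83e-05). With LDHi in IL-21 cells 2 rose and 2 fell, where 11.1% of all genes rose and 20.3% fell. Of 7 genes for cytosolic counterparts and citrate export 6 rose with IL-2 (median 0.97), and 5 of 7 fell with LDHi in IL-2 cells (median -0.86). Slc25a1, the mitochondrial citrate carrier, changed by 1.57 ± 0.12 with IL-2 and by -1.72 ± 0.12 with LDHi in IL-2 cells. Idh1, the cytosolic counterpart of Idh2, changed by -2.07 ± 0.26 with LDHi in IL-2 cells, to 2.61 ± 0.127 RPKM in IL-2 + LDHi, against 10.6 ± 0.893 in IL-2. The comparisons of IL-2 with no cytokine and of IL-2 + LDHi with IL-2 share the IL-2 libraries.

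Of 8 genes that feed or drain 2-oxoglutarate 4 rose and 1 fell with IL-2 (median 0.61). Over all genes 25.6% were called higher and 24.8% lower with IL-2 (median -0.03). With LDHi 0 of the 8 rose and 4 fell in IL-2 cells (median -0.41), where 17.8% of all genes rose and 21.6% fell. In IL-21 cells 1 rose and 3 fell with LDHi (median -0.05), where 11.1% of all genes rose and 20.3% fell. Gpt2, a mitochondrial alanine transaminase, had 0.228 ± 0.00373 RPKM in IL-2 + LDHi, 6.72 ± 0.237 in IL-2 and 0.188 ± 0.0132 without cytokine. Got2, the mitochondrial aspartate transaminase, changed by 0.87 ± 0.12 with IL-2, by -0.80 ± 0.12 with LDHi in IL-2 cells and by -0.66 ± 0.12 with LDHi in IL-21 cells (edgeR adjusted p = 0.00306). Of 18 genes of mitochondrial mass and import 10 rose and 2 fell with IL-2 (median 0.56), beside the same shares of 25.6% and 24.8% over all genes. With LDHi 3 rose and 6 fell in IL-2 cells (median 0.08, against 0.01 over all genes), and 5 rose and 1 fell in IL-21 cells (median 0.21, against -0.03). The shares over all genes were 17.8% higher and 21.6% lower in IL-2 cells, and 11.1% and 20.3% in IL-21 cells. Lonp1, the matrix protease, changed by 1.96 ± 0.14 with IL-2 and by -1.45 ± 0.13 with LDHi in IL-2 cells (edgeR adjusted p = 8.14e-05).

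**Figure D4:**
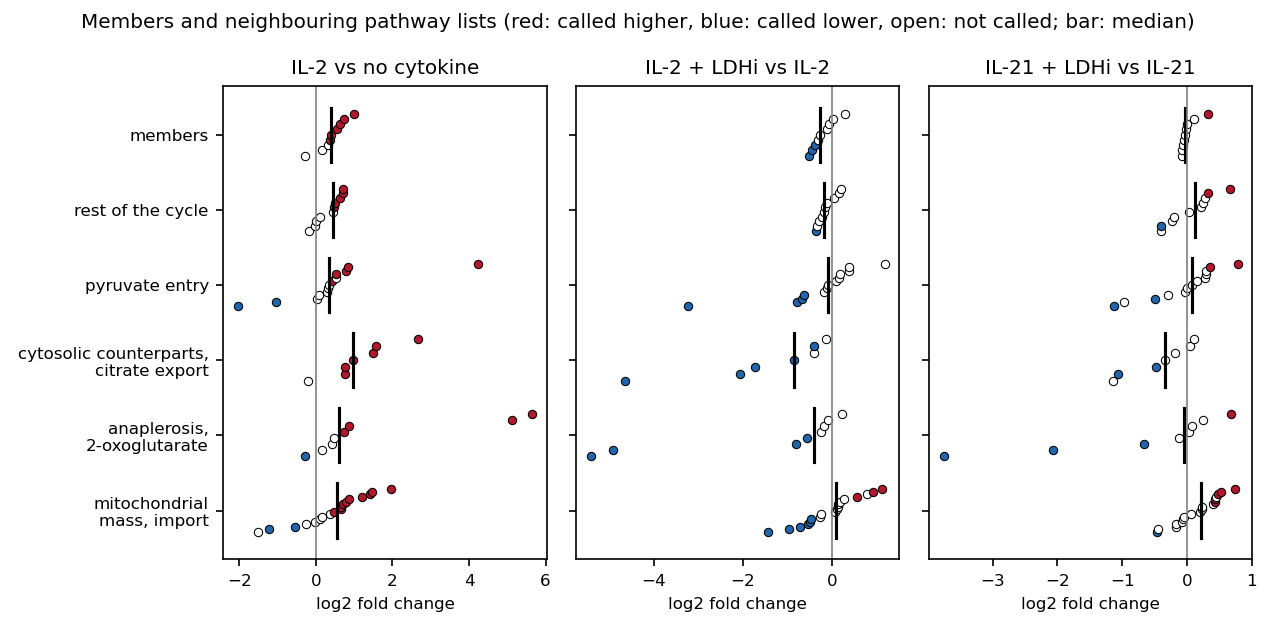
Log2 fold change (horizontal axis, a scale of its own in each panel) of the 9 enzymes and of the genes of 5 neighbouring lists in 3 comparisons. Each point is a gene, red where called higher, blue where called lower and open where not called, and the bar is the median of the list. The median of the 9 is 0.38 with IL-2, -0.27 with LDHi in IL-2 cells and -0.02 with LDHi in IL-21 cells.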

How the data were processed

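mRNA was sequenced from 10 libraries of mouse CD8+ T cells. The authors deposited for each library read counts per transcript, its length, and RPKM computed from their own library totals, per the file headers. The submitters' processing notes name TopHat2 2.2.1, Bowtie2 2.2.6, SAMtools 0.1.8, bedtools 2.25.0 and edgeR (no version), with coordinates matching mm10. Whether counting used strand is not stated in those notes or the labels.

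For each of 23992 symbols the transcript with the most reads was kept. Counts were tested in R 4.3.3 with edgeR 4.0.16 (filterByExpr with a minimum count of 10 and a minimum total of 15, TMM, robust quasi-likelihood F test) in 1 fit of all 10 libraries. Benjamini-Hochberg adjustment ran over 14357 genes and calls were made at 0.05. Errors of fold changes are standard errors, and those of levels are SD over 2 libraries. Alternatives were DESeq2 1.42.0, limma 3.58.1 on log2(RPKM + 1), other scalings, no filter, the longest transcript, only the groups compared, a replicate block and each library left out. The code was tested on simulated data. In each simulated comparison 200 of 14039 to 14050 genes were changed, a far smaller share than was called in the data. Of 2-fold changes the code called 54% for IL-2 against no cytokine, 49% for IL-21 + LDHi against IL-21 and 13% for the interaction. False calls were 7 of 105, 6 of 102 and 3 of 58. With so few genes changed, these shares are not the power of the real comparisons. The code called fewer of the smaller changes, and an uncalled value does not show that a change is absent. Figures were drawn with matplotlib 3.10.9.

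The members and lists were chosen with earlier results of these data known. All 9 members were named, and any gene of the neighbouring lists could be named beside its list's counts. For 1 gene of these lists results are not reported here, and it is left out of the counts, medians and figures of its list. Alternatives for those lists were chosen after seeing the data.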

Additional observations from a re-analysis of the deposited data

Results flagged for a closer look

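The change with LDHi differed between IL-21 cells and IL-2 cells for 13 of 58 genes of the neighbouring lists and the LDH genes, by edgeR's interaction test with adjusted p below 0.05, and for 0 of the 9 enzymes. That is 22.4%, near the 21.7% of all genes, so the count is no result about these lists. The values are log2, the change in IL-21 cells minus that in IL-2 cells. They were 1.03 for Suclg2, 0.92 for Pdk1, 2.10 for Pcx, 1.24 for Slc25a1, 3.50 for Me1, 2.85 for Gpt2, 0.47 for Tomm20, 0.52 for Vdac1, 1.24 for Hspa9, 1.89 for Lonp1, 1.15 for Ldha and 1.22 for Ldhb, and -0.88 for Ppargc1b. Of these 13 calls 5 held in every alternative. Gpt2 had 8 and 3 reads in IL-21 + LDHi, so its value rests on few reads.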

How the results depend on the processing

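Of the 18 calls made on the 9 enzymes over 7 comparisons, 8 held under all 18 alternatives, 10 lost the call under at least 1, and 0 changed sign. The cause was not tested. With 2 libraries a group, leaving 1 out leaves a lone library that is assumed to vary like the other groups.

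Counts of enzymes called moved as follows when libraries were left out: 0 to 4 for IL-21 against no cytokine (2 with all libraries), 0 to 6 for IL-2 + LDHi against IL-2 (3), 0 to 1 for IL-21 + LDHi against IL-21 (1), 1 to 4 for IL-21 + LDHi against IL-2 + LDHi (2) and 0 to 4 for the interaction (0). Counts over all genes moved to 749 to 3967 (1657), 4511 to 8370 for IL-21 against IL-2 (7123), 3113 to 7326 for IL-2 + LDHi against IL-2 (5657), 2453 to 6660 for IL-21 + LDHi against IL-21 (4500), 2056 to 5493 for IL-21 + LDHi against IL-2 + LDHi (3741) and 1742 to 5201 for the interaction (3122), the first being IL-21 against no cytokine. When only the groups compared were fitted, all-gene counts were 91, 4522, 9070, 2259 and 7352 in the first 5 of these comparisons, and 0 enzymes were called for IL-21 against no cytokine, 6 for IL-2 + LDHi against IL-2, 0 for IL-21 + LDHi against IL-21 and 5 for IL-21 + LDHi against IL-2 + LDHi. With limma these 4 counts were 0, 1, 0 and 1. Library size alone called 4 in the last, no filter and the replicate block called 0 for IL-21 + LDHi against IL-21, and DESeq2 called 2 in the interaction.

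Signs turned for 20 of the 63 values in 1 or more alternatives, none of them called and none larger than 0.166 in size. With limma, IL-21 against no cytokine gave -0.0435 for Idh3b and -0.0342 for Sucla2, IL-21 against IL-2 -0.021 for Idh3a and -0.0362 for Ogdh, IL-21 + LDHi against IL-21 0.0165 for Idh3b, 0.0289 for Sucla2 and 0.0461 for Suclg1, and IL-21 + LDHi against IL-2 + LDHi -0.0143 for Idh3b. Library size alone gave 0.0357 for Sucla2 in IL-2 + LDHi against IL-2, and -0.0635 for Sucla2 and -0.099 for Fh1 in the interaction. No filter gave 0.0102 for Sucla2 and 0.0100 for Suclg1 in IL-21 + LDHi against IL-21, where the replicate block gave 0.00554 for Suclg1. With libraries left out, the ranges for IL-21 against no cytokine were Sucla2 -0.00799 to 0.255, Suclg1 -0.262 to 0.147 and Fh1 -0.387 to 0.112. For IL-2 + LDHi against IL-2 the range was Ogdh -0.0164 to 0.0797. For IL-21 + LDHi against IL-21 they were Cs -0.183 to 0.0988, Idh2 -0.296 to 0.188, Idh3b -0.0972 to 0.0600, Idh3g -0.164 to 0.058, Sucla2 -0.0544 to 0.0466, Suclg1 -0.19 to 0.218 and Fh1 -0.304 to 0.194. For IL-21 + LDHi against IL-2 + LDHi they were Idh3a -0.102 to 0.0333 and Idh3g -0.061 to 0.0321, and for the interaction Fh1 -0.187 to 0.313.

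Library size alone moved the median of all genes by -0.14 for IL-2 against no cytokine, 0.12 for IL-2 + LDHi against IL-2 and -0.14 for the interaction. With limma, the difference of each gene's value from that of the main fit was taken. Its median over genes was -0.15 for IL-21 against no cytokine, -0.18 for IL-21 against IL-2 and -0.17 for IL-21 + LDHi against IL-2 + LDHi. The difference between replicates 1 and 2, gene by gene, was correlated between groups. Over 10 pairs of groups the correlations ran from -0.15 to 0.48, and 3 were above 0.1. The largest was that of IL-21 and no cytokine (0.48). The next, 0.11 and 0.10, were smaller in size than the lowest, -0.15 and -0.13. B cell markers summed to 19.8, 19.6 and 17.6 RPKM in replicate 1 without cytokine, with IL-21 and with IL-21 + LDHi. In replicate 2 they summed to 8.74, 4.91 and 6.08. With IL-2 and IL-2 + LDHi the replicates lay between 8.15 and 9.34. Whether same-numbered libraries share a preparation was not tested. The main fit did not pair them, and the replicate block was an alternative.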
